A study of Mus musculus with 12 samples.

Results

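Gene expression in whole bone marrow was compared between sham-operated mice given EMPA (Sham-E) and sham-operated mice not given it (Sham). The 6 libraries were chosen by their group labels, 3 for each group, from 12 in the study. All 53801 genes of the deposited tables were considered, and the 15119 with enough counts were tested. All mice were of strain C57BL/6N. Sham-E mice had a sham operation and EMPA, and Sham mice had a sham operation without EMPA. The other groups of the study, MI with EMPA (MI-E) and MI, had infarction by ligation of the LAD, a coronary artery, and they enter here for the spread between libraries and for the test of whether the EMPA difference depended on the operation. The sources used here give neither the dose of EMPA nor the time between surgery and collection of marrow. The labels do not tie libraries to separate mice, so p-values measure the spread between these samples, which may be technical.

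EMPA, which the labels do not spell out, is the usual short form of empagliflozin, a drug that blocks SGLT2, the sodium-glucose transporter encoded by Slc5a2 that recovers glucose in the kidney. Bone marrow makes the cells of the blood. It holds neutrophils and their precursors, red cell precursors, B cells at every stage from the precursors that first rearrange their antibody genes, and smaller numbers of megakaryocytes, eosinophils and stroma, including the osteoblasts that lay down bone. A change in the level of a gene in such a mixture can come from fewer cells of a type or from less RNA per cell, and bulk libraries cannot tell these apart.

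Libraries are named by group and column number, and values are listed in the order Sham-E 1, 2 and 3, then Sham 1, 3 and 4. Levels are CPM, counts over the scaled library size, unless TPM, a measure per transcript length, is named. Total counts were 22068255 to 24502920 in Sham-E and 22160627 to 24239870 in Sham. Marrow genes were high in every library: Mpo, the peroxidase of granulocyte precursors, had 856 to 2635 TPM in Sham-E and 1002 to 1356 TPM in Sham, and the muscle gene Acta1 stayed at or under 0.96 TPM in Sham-E and 2.2 TPM in Sham. Mitochondrial genes took 1.61 ± 0.25% in Sham-E and 1.55 ± 0.10% of counts in Sham (SD, n = 3 each; exact permutation p = 0.8, two-sided). The mean insert length was 277 ± 5.12 bp in Sham-E and 285.9 ± 1.59 bp in Sham (SD, n = 3 each). Every Sham-E library (271.1 to 280.3 bp) was shorter than every Sham library (284.1 to 286.9 bp), with an exact permutation p of 0.1, the smallest that 3 against 3 libraries allow. Insert length and EMPA therefore cannot be told apart in any gene below.

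Sham-E 1 stood apart from the other 5 libraries. Correlations of log2 CPM across genes, which are not independent replicates, were 0.945 to 0.959 between Sham-E 1 and the others and 0.981 to 0.989 among the others. In 9903 of 15119 genes (65.5%) Sham-E 1 lay outside the range of the other 5, above in 5102 (33.7%) and below in 4801 (31.8%), whereas the next library in this respect, Sham-E 3, did so in 41.5%. Sham-E 1 had almost none of the transcripts that mark B-cell precursors, few of those of red cell precursors and of the interferon response, and more of those of granulocyte precursors. Many of the results below are therefore also given without Sham-E 1, and that library is described on its own afterwards.

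**Figure D1:**
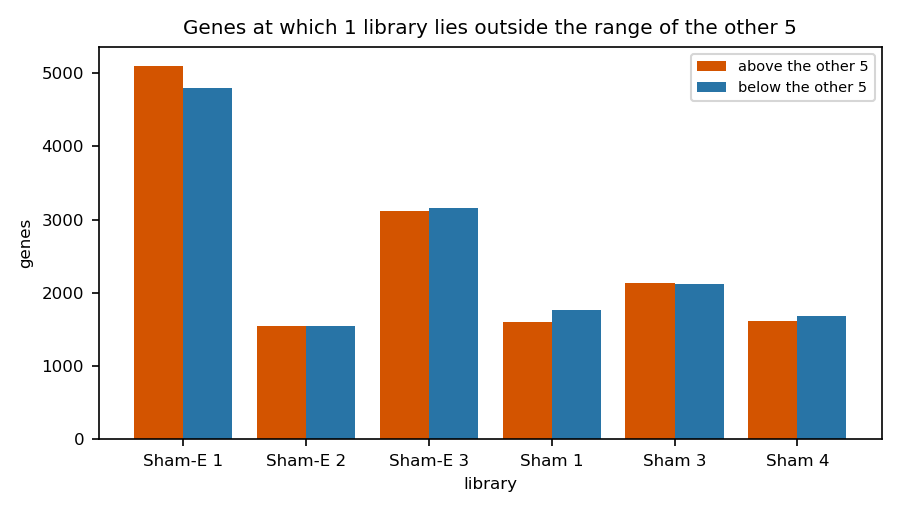
Number of genes, of 15119 tested, at which a library lay above (orange) or below (blue) the range of the other 5 Sham-E and Sham libraries. Sham-E 1 has the tallest bars, with 5102 genes above and 4801 below.

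The comparison of Sham-E with Sham asked what EMPA changed in the marrow of mice with no infarction. No gene passed an adjusted p of 0.05 by edgeR's quasi-likelihood test (0% of 15119 genes; smallest Benjamini-Hochberg adjusted p 0.9996). An unadjusted p under 0.05 was reached by 287 genes (1.9%), of which 184 (1.22%) were higher and 103 (0.681%) lower in Sham-E. Where nothing differs, a share of about 0.05 would reach it, so 1.9% is no excess. In 1358 genes (8.98%) the 3 Sham-E libraries did not overlap the 3 Sham libraries, with 683 (4.52%) higher and 675 (4.46%) lower. Shuffled labels of 3 against 3 libraries would separate a share of about 0.1, so 8.98% is no excess either. The median absolute log2 fold change was 0.16, and 458 genes had one over 1. Without Sham-E 1 the count past the threshold was again 0, and 173 of 15496 genes (1.12%) had an unadjusted p under 0.05, with 86 (0.555%) higher and 87 (0.561%) lower. That count was 173 without Sham 1, 161 without Sham 4, 503 without Sham-E 2 and 1032 without Sham-E 3, and 1625 by limma-voom with a weight for each library. DESeq2 called Bglap and Iglv2 lower, and limma-voom with a weight for each library called Bglap lower and Gm28557 higher. All genes and lists described from here on are thus values that did not pass the edgeR threshold, and the adjusted p of every gene named for this comparison was 0.9996, or 1 without Sham-E 1.

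**Figure D2:**
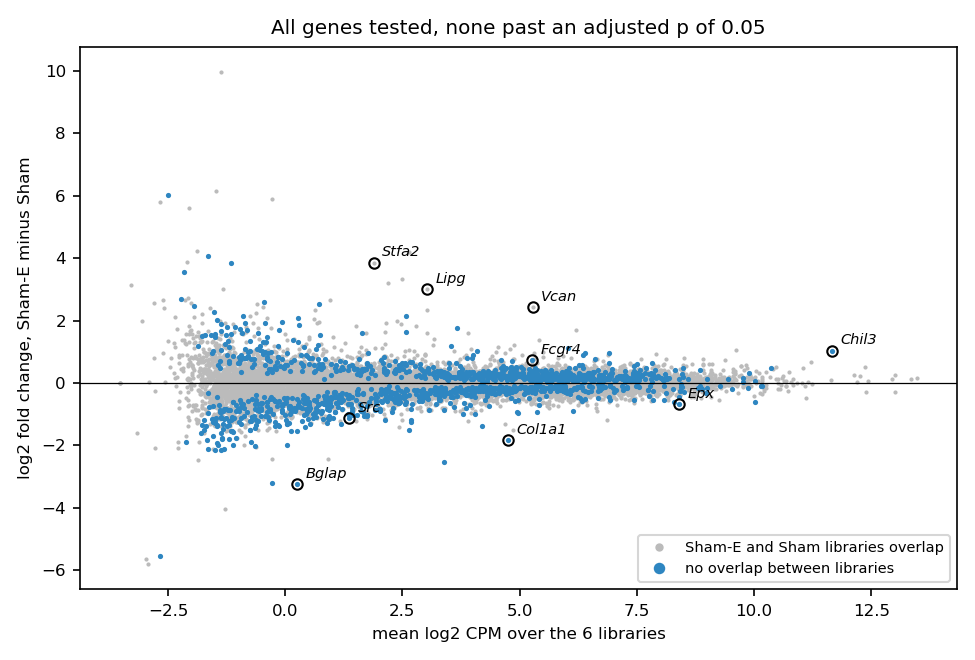
Log2 fold change of Sham-E over Sham (edgeR, y axis) against mean log2 CPM over the 6 libraries (x axis) for the 15119 genes tested. Blue points are the 1358 genes whose libraries did not overlap, circled genes are named in the text, and no gene passed an adjusted p of 0.05.

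Bglap, Bglap2 and Col1a1, genes of bone-forming cells, stood at the low end, while some other bone genes overlapped between the groups. Bglap, which encodes osteocalcin, the protein that osteoblasts deposit in bone, had 0.13, 0.388 and 0.578 CPM in Sham-E, against 2.77, 2.71 and 5.04 CPM in Sham. Every Sham-E library was below every Sham library. Its log2 fold change was −3.25 ± 0.60 (SE), and its unadjusted p of 0.00014 was the smallest of all genes (edgeR adjusted p = 0.9996). It passed with DESeq2 (−3.27, adjusted p = 0.000883) and with limma-voom weighted by library (−3.07, adjusted p = 0.0238). Bglap lies at chr3:88383501-88384464 on mm10, next to its close copy Bglap2 (chr3:88377736-88378699), and reads could be split between them. Bglap2 had 0.0865, 0.311 and 0.356 CPM in Sham-E, against 1.15, 1.77 and 4.17 CPM in Sham (log2 fold change −3.21 ± 0.76). In Sham-E 1, 3 counts make 0.13 CPM, so the Sham-E levels of Bglap and Bglap2 rest on few counts. Col1a1, a chain of the type I collagen that forms bone matrix, had 5.92, 14.3 and 27.8 CPM in Sham-E, against 43.6, 42.4 and 84.1 CPM in Sham (−1.82 ± 0.55). These genes did not overlap between the groups either. Without Sham-E 1 the log2 fold changes were −2.85 ± 0.60 for Bglap, −2.81 ± 0.82 for Bglap2 and −1.43 ± 0.48 for Col1a1.

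Of the 26 measured genes of stroma and bone, 20 had a negative and 6 a positive log2 fold change, and the median was −0.40 (−0.42 without Sham-E 1), beside 0.01 over all genes. The groups did not overlap in 5 of them, 4 lower and 1 higher, where the background was 8.98% of genes. Serpinf1, another member, did not overlap in TPM, with 10.75, 12.93 and 12.39 TPM in Sham-E, against 19.55, 15.22 and 17.33 TPM in Sham. Lum, a collagen-binding proteoglycan, overlapped, with 0.173, 0.117 and 0.533 CPM in Sham-E, against 0.469, 0.534 and 2.22 CPM in Sham. The bone genes Runx2 and Spp1 also overlapped between the groups. Runx2 had 16.4, 19.4 and 12.4 TPM in Sham-E, against 13.2, 14.6 and 14.8 TPM in Sham. Spp1 had 43.0, 9.13 and 18.0 TPM in Sham-E, against 17.0, 10 and 11.9 TPM in Sham. The list level (mean log2 CPM of its members) was 1.21, 0.83 and 2.33 in Sham-E, against 2.42, 1.84 and 2.47 in Sham, so Sham-E 3 lay within the range of Sham and the other 2 below it. Without Sham-E 3 the median was −1.13, and over all alternatives it ran from −1.52 with library weights in limma-voom to −0.21 without Sham-E 2. Cxcl12, the chemokine by which stroma retains blood cells in marrow, differed more within groups than between them, with 89.3, 44.3 and 228 CPM in Sham-E, against 188, 82.5 and 105 CPM in Sham. Its log2 fold change was −0.05 ± 0.51, and 0.12 ± 0.56 without Sham-E 1.

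Eosinophil granule genes were lower in every Sham-E library. Epx, the eosinophil peroxidase, had 198, 321 and 300 CPM in Sham-E (273 ± 65.8, SD, n = 3), against 400, 407 and 496 CPM in Sham (434 ± 53.6). Prg3, a relative of the major basic protein, had 19.6, 38.4 and 45.0 CPM in Sham-E, against 50.1, 55.7 and 62.4 CPM in Sham. Prg2, the major basic protein itself, had 661, 892 and 996 CPM in Sham-E, against 1138, 1364 and 1368 CPM in Sham. The lowest library in all 3 genes was Sham-E 1, and Sham-E 2 and 3 were also below Sham. Log2 fold changes were −0.67 ± 0.22 for Epx, −0.71 ± 0.24 for Prg3 and −0.60 ± 0.23 for Prg2 (edgeR adjusted p = 0.9996), and without Sham-E 1 they were −0.48 ± 0.21, −0.43 ± 0.16 and −0.45 ± 0.24. Ear1, an eosinophil ribonuclease with near-identical copies, had 148, 212 and 213 CPM in Sham-E, against 249, 299 and 286 CPM in Sham (−0.54 ± 0.25).

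The list of eosinophils, basophils and mast cells had 19 measured members, 15 negative and 4 positive, with a median of −0.15 (0.00 without Sham-E 1). In 6 of the 19 the groups did not overlap, all 6 lower, where 4.46% of all genes were lower without overlap. Those 6 were Epx, Prg2, Prg3 and the ribonucleases Ear1, Ear2 and Ear6, all eosinophil genes. The eosinophil receptor genes Ccr3 and Il5ra overlapped between the groups, so not every eosinophil gene was lower. Ccr3 had 13.41, 11.03 and 15.81 TPM in Sham-E, against 16.7, 16.2 and 11.68 TPM in Sham. Il5ra had 3.55, 2.91 and 2.9 TPM in Sham-E, against 3.35, 3.85 and 3.03 TPM in Sham. The basophil protease Mcpt8 was low in Sham-E 1 alone, with 29.0, 106 and 85.8 CPM in Sham-E, against 78.5, 101 and 81.1 CPM in Sham.

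Among single genes with the smallest p, those higher in Sham-E included 3 receptors. Gpr141, an orphan receptor at chr13:19749682-19824257, had 111, 85.5 and 94.5 CPM in Sham-E (96.9 ± 12.7), against 72.4, 67.7 and 69.1 CPM in Sham (69.7 ± 2.4; SD, n = 3 each), a log2 fold change of 0.48 ± 0.12. Fcgr4, an activating receptor for immunoglobulin G on mouse monocytes and neutrophils (chr1:171018920-171029761), had 71.0, 40.7 and 39.6 CPM in Sham-E, against 28.4, 30.8 and 31.7 CPM in Sham (0.74 ± 0.20). Gpr65, a receptor that senses protons (chr12:98268635-98276644), had 39.5, 38.3 and 39.3 CPM in Sham-E, against 24.1, 31.0 and 27.9 CPM in Sham (0.50 ± 0.15). The groups did not overlap in these 3 genes, as the rule of choice required. Sham-E 1 was the highest library in each, and without it the log2 fold changes were 0.37 ± 0.12, 0.41 ± 0.14 and 0.49 ± 0.17. Of the exon bases of Gpr65, 24.7% are shared with the opposite-strand model Gm47566, whose reads cannot be told apart without strand information.

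Zfp318, a nuclear protein needed for IgD on mature B cells, had 33.5, 36.2 and 39.2 CPM in Sham-E, against 26.2, 27.7 and 22.6 CPM in Sham (0.51 ± 0.16). Kbtbd11, a kelch-domain protein, had 37.1, 37.8 and 43.2 CPM in Sham-E, against 27.3, 33.0 and 26.6 CPM in Sham (0.44 ± 0.13), and shares 24.8% of its exon bases with the opposite-strand model Gm37844. The zinc finger gene Zfp992 had 9.90, 6.64 and 7.29 CPM in Sham-E, against 4.99, 4.80 and 5.04 CPM in Sham (0.68 ± 0.19). Zfp318 and Kbtbd11 did not have their highest value in Sham-E 1, and without that library their log2 fold changes were 0.56 ± 0.17 and 0.49 ± 0.14.

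Among the lower genes, the tyrosine kinase gene Src (chr2:157418444-157471862) had 1.51, 1.90 and 1.64 CPM in Sham-E, against 4.14, 3.20 and 3.73 CPM in Sham. The Sham-E libraries lay close together and far from Sham, and the log2 fold change was −1.13 ± 0.30, or −1.05 ± 0.34 without Sham-E 1. Mrvi1, a substrate of cGMP-dependent kinase in platelets and smooth muscle, had 2.98, 2.33 and 3.56 CPM in Sham-E, against 6.61, 3.61 and 9.85 CPM in Sham (−1.18 ± 0.39). Sham 3 was hardly above Sham-E 3 in this gene. Ece1, which makes endothelin from its precursor, had 13.2, 15.6 and 13.7 CPM in Sham-E, against 21.6, 18.8 and 17.2 CPM in Sham (−0.44 ± 0.16).

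**Figure D3:**
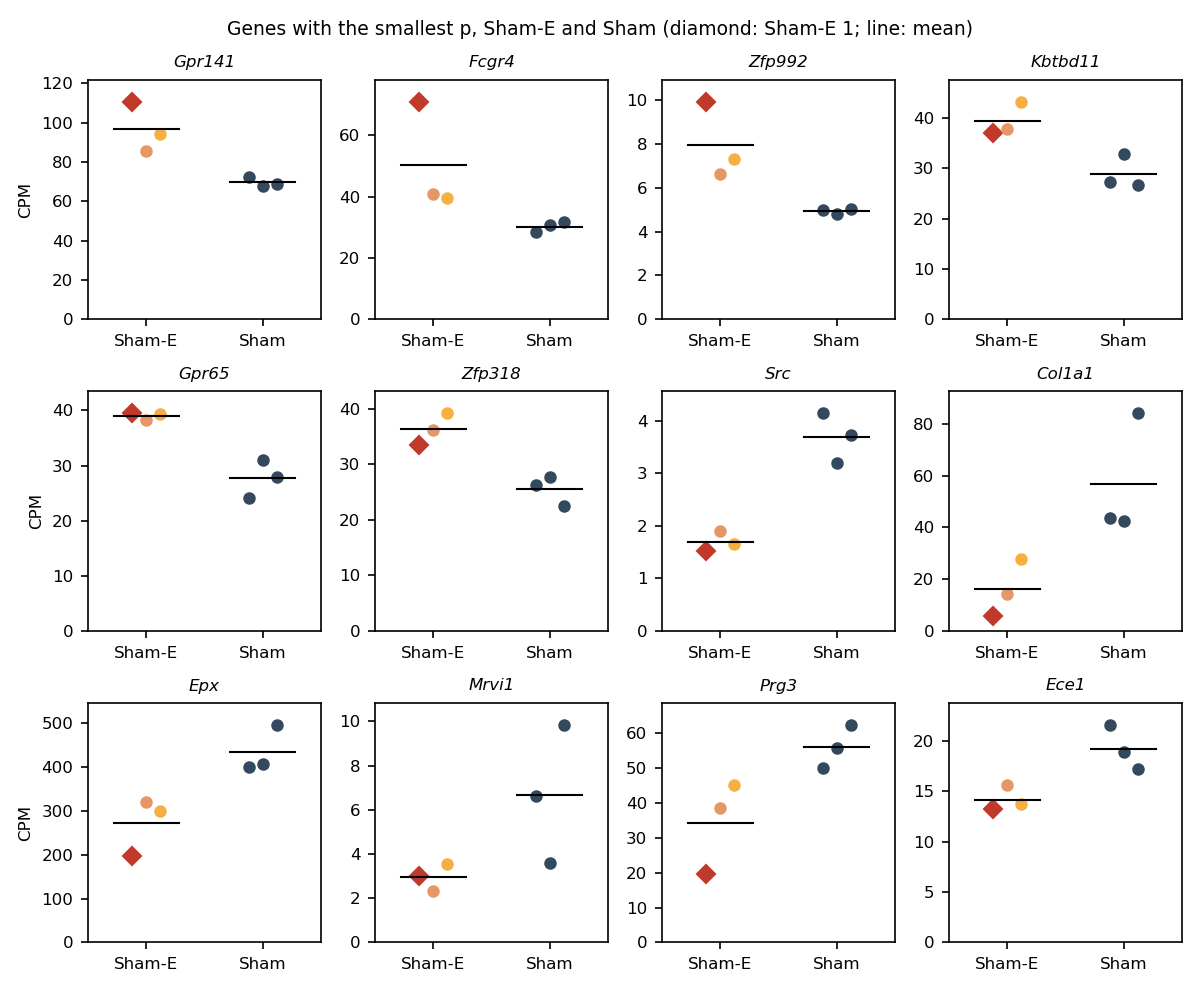
CPM (y axis, linear from 0) of the 6 genes higher and the 6 lower in Sham-E with the smallest p among genes whose groups did not overlap, at a mean log2 CPM from 1 upwards. Points are libraries, the red diamond is Sham-E 1, lines are group means, and none of the 12 genes passed an adjusted p of 0.05.

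Some genes of mature B cells were higher in every Sham-E library, while the list as a whole was not. Of 33 measured members, 19 were positive and 14 negative, where 52.5% of all genes were positive, and the median log2 fold change was 0.10 (0.20 without Sham-E 1). The list level (mean log2 CPM) was 6.00, 6.58 and 6.62 in Sham-E, against 6.32, 6.69 and 6.21 in Sham. In 4 the groups did not overlap, all 4 higher (background 4.52%): Ighd, H2-Aa, H2-Eb1 and Cr2. Ighd, the constant region of IgD, had 168, 148 and 135 CPM in Sham-E (150.4 ± 16.5), against 102, 112 and 75.5 CPM in Sham (96.5 ± 18.9; SD, n = 3 each), a log2 fold change of 0.64 ± 0.27. H2-Aa, a chain of the class II molecule that presents peptides, had 231, 231 and 275 CPM in Sham-E, against 184, 211 and 136 CPM in Sham (0.47 ± 0.20). Ciita, the activator of the class II genes, had 43.8, 39.2 and 41.5 CPM in Sham-E, against 31.6, 39.8 and 26.0 CPM in Sham (0.35 ± 0.15), so that Sham 3 lay within Sham-E. Cxcr5, the receptor that guides B cells to follicles, had 23.6, 28.5 and 28.5 CPM in Sham-E, against 20.0, 23.7 and 13.9 CPM in Sham (0.49 ± 0.20). Log2 fold changes without Sham-E 1 were 0.55 ± 0.30 for Ighd, 0.51 ± 0.22 for H2-Aa, 0.31 ± 0.17 for Ciita and 0.57 ± 0.21 for Cxcr5.

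General B-cell genes overlapped between the groups. Ms4a1, which encodes CD20, had 85.2, 118 and 152 CPM in Sham-E, against 106, 145 and 102 CPM in Sham (0.01 ± 0.34). Cd79a, through which the B-cell receptor signals, had 113, 241 and 226 CPM in Sham-E, against 221, 338 and 236 CPM in Sham (−0.46 ± 0.29). Ighm, the constant region of IgM, had 524, 1334 and 1291 CPM in Sham-E, against 1080, 1525 and 1337 CPM in Sham (−0.32 ± 0.29). Sham-E 1 was the lowest library in all 3, and without it Ms4a1 had 0.20 ± 0.36, Cd79a −0.18 ± 0.24 and Ighm 0.00 ± 0.19.

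Of the genes that keep or feed B cells in marrow, Cxcr4, the receptor for Cxcl12, had 222, 404 and 397 CPM in Sham-E, against 281, 371 and 344 CPM in Sham (0.04 ± 0.21). Il7, the growth factor of B-cell precursors, had 0.389, 0.582 and 0.533 CPM in Sham-E, against 0.299, 0.164 and 0.159 CPM in Sham, from 4 to 15 counts a library, with no overlap (1.26 ± 0.72). Among 13 measured B-cell factors, 6 were positive and 7 negative, with a median of −0.02, and 12 of 13 were positive without Sham-E 1 (median 0.15).

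Histone genes of the replication-dependent clusters were lower in Sham-E as a list. Of 31 measured, 30 had a negative log2 fold change, and the median was −0.44 (−0.40 without Sham-E 1, again 30 of 31 negative). In 10 the groups did not overlap, all 10 lower, where 4.46% of all genes were lower without overlap. Levels of single members were low: Hist1h2bb had 0.995, 0.466 and 0.978 CPM in Sham-E, against 1.79, 1.31 and 2.54 CPM in Sham (−1.21 ± 0.51). Hist1h4d had 0.995, 1.55 and 1.87 CPM in Sham-E, against 3.46, 2.26 and 2.70 CPM in Sham (−0.93 ± 0.40). Counts over all histone cluster genes were 269, 323 and 337 CPM in Sham-E (310.1 ± 35.9), against 336, 327 and 489 CPM in Sham (384 ± 91.2; SD, n = 3 each; exact permutation p = 0.3). The sums overlapped, with Sham 4 the highest, and without Sham 4 the median of the list was −0.19. Most of these transcripts lack a poly(A) tail, members are near-identical in sequence, and their level moved in the same direction as insert length, whose part in the result was not tested. Proliferation genes, which mark dividing cells, had a median of −0.06 over 32 members, with 7 positive and 25 negative, and 0.08 without Sham-E 1, with 24 positive and 8 negative.

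The chaperone genes Hspa8 and Bag3 were higher in every Sham-E library. Hspa8, a constitutive member of the HSP70 family, had 1729, 1389 and 1535 CPM in Sham-E, against 1011, 1021 and 1311 CPM in Sham (0.48 ± 0.18). Bag3, its co-chaperone, had 18.3, 14.8 and 14.9 CPM in Sham-E, against 9.73, 11.2 and 11.8 CPM in Sham (0.55 ± 0.19). The groups did not overlap in either gene, and without Sham-E 1 the values were 0.39 ± 0.19 and 0.45 ± 0.21. Of 18 measured heat shock genes, 14 were positive and 4 negative, with a median of 0.17 (0.12 without Sham-E 1), and 3 did not overlap, all higher, where 4.52% of all genes were higher without overlap. In the glucocorticoid response list, 19 of 23 were positive and 4 negative, with a median of 0.26 (0.16 without Sham-E 1). Gadd45a, a stress-induced gene of that list, went the other way, with 43.2, 71.8 and 86.6 CPM in Sham-E, against 103, 100.4 and 94.9 CPM in Sham (−0.57 ± 0.26). Of 24 immediate early genes, 5 were positive and 19 negative, with a median of −0.23 (−0.16 without Sham-E 1).

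Megakaryocyte genes had a median of −0.47 (−0.39 without Sham-E 1), with 20 of 24 negative, but the libraries overlapped in all 24. Treml1, a platelet granule receptor, had 1.25, 0.777 and 2.80 CPM in Sham-E, against 4.99, 1.44 and 4.88 CPM in Sham (−1.23 ± 0.56), and Gp5, a platelet surface glycoprotein, had 4.84, 4.47 and 7.95 CPM in Sham-E, against 12.0, 5.58 and 12.0 CPM in Sham (−0.78 ± 0.40). Sham 3 lay within Sham-E in these genes. Skeletal muscle genes, present only at low levels, had a median of −0.61 over 12 measured members (−0.38 without Sham-E 1), with 3 positive and 9 negative, and it was −0.10 with limma on TPM. The groups did not overlap in 6 of the 12, 5 lower and 1 higher, where the background was 8.98%. The one higher was Neb, the thin-filament protein nebulin, with 3.46, 0.505 and 0.622 CPM in Sham-E, against 0.299, 0.410 and 0.477 CPM in Sham (1.93 ± 0.76), and it was highest in Sham-E 1. Mylpf, a myosin light chain of fast muscle, had 1.38, 3.49 and 3.60 CPM in Sham-E, against 5.67, 4.97 and 4.84 CPM in Sham (−0.87 ± 0.36).

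The drug's target and its relatives were barely detected. Slc5a2 had 0, 6 and 9 counts in Sham-E, against 13, 10 and 21 counts in Sham, and the 0 of Sham-E 1 allows a level of up to 0.13 CPM. Slc5a1, which encodes SGLT1, had 1 count in Sham 3 and 0 in the other 5 libraries, which allows up to 0.133 CPM, and was not tested. Slc5a2 shares 20.6% of its exon bases with the opposite-strand gene BC017158. Of 10 measured genes of sodium and glucose transport, 3 were positive and 7 negative, with a median of −0.18 (−0.20 without Sham-E 1).

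Fat oxidation and ketone genes had a median of 0.09 over 31 members, 20 positive and 11 negative, and 0.00 without Sham-E 1. Slc25a20, which carries acylcarnitines into mitochondria, had 56.0, 30.5 and 26.6 CPM in Sham-E, against 22.2, 24.8 and 22.1 CPM in Sham (0.71 ± 0.26, and 0.31 ± 0.20 without Sham-E 1). Cpt1a, the enzyme that commits fatty acids to oxidation, had 289, 182 and 165 CPM in Sham-E, against 133, 143 and 159 CPM in Sham (0.55 ± 0.24, and 0.26 ± 0.21 without Sham-E 1). Neither gene overlapped between the groups, and Sham-E 1 was the highest library in both. Oxidative phosphorylation genes had a median of 0.03 over 33 members, the 7 measured genes of the mitochondrial genome 0.11, and the 46 ribosomal protein genes −0.02.

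**Figure D4:**
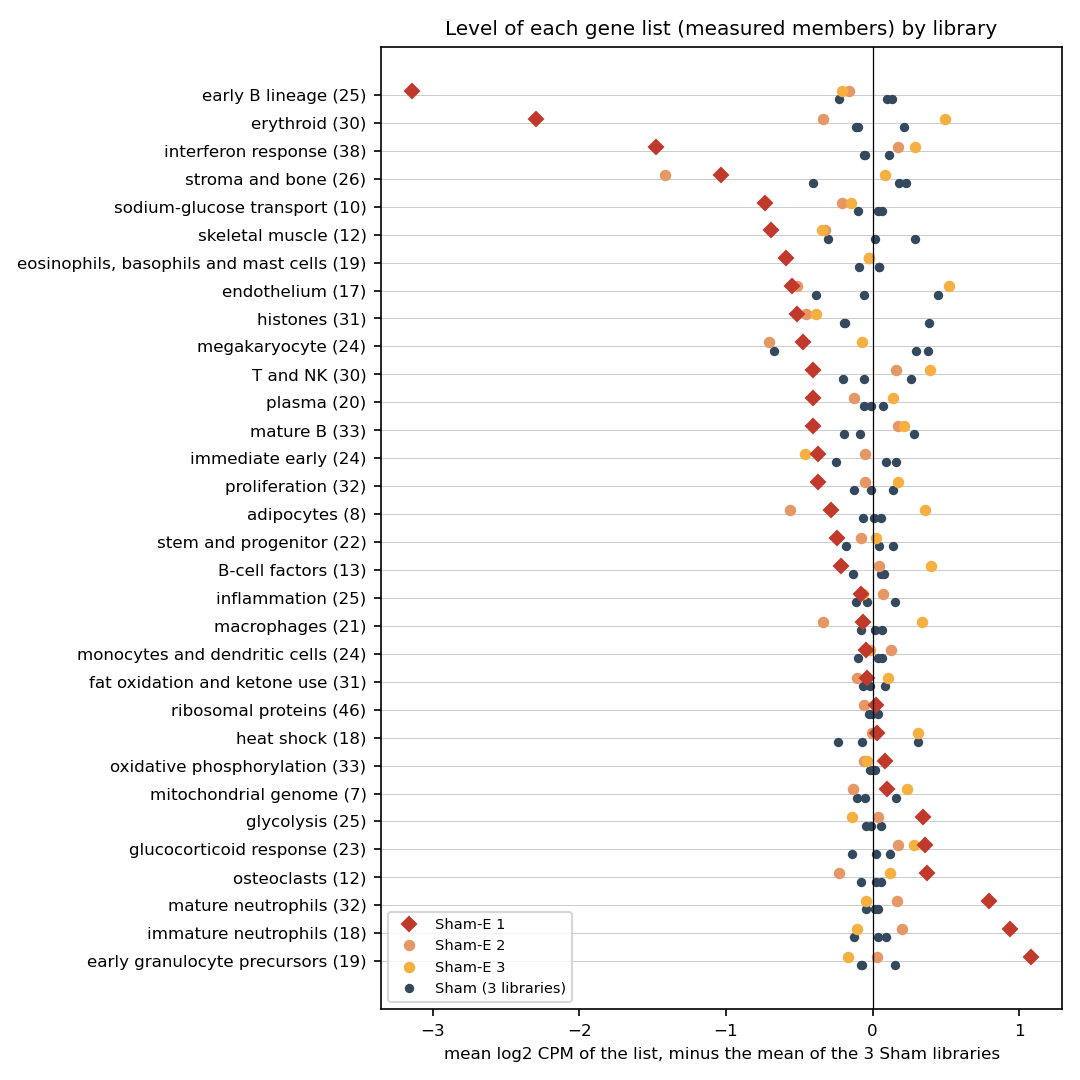
Mean log2 CPM of the measured members of each gene list (numbers in brackets) in each library, minus the mean of the 3 Sham libraries. Sham-E 1 (red diamond) lies far to the left for early B lineage, erythroid and interferon response genes and to the right for granulocyte precursors and neutrophils, where Sham-E 2 and 3 lie near Sham.

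Among genes whose mean log2 CPM reached 3, the widest gaps of Sham-E 1 were in genes of B-cell precursors. Igll1 and Vpreb1 form the surrogate light chain with which a precursor tests its new heavy chain, and Rag1 and Rag2 encode the recombinase that cuts antibody genes. Sham-E 1 held 3 counts of Igll1, 5 of Vpreb1, 28 of Rag1 and 4 of Rag2. Sham-E 2 and 3 held 966 and 656 counts of Igll1, against 932, 1044 and 1281 in Sham. Vpreb1 had 610 and 590 counts in Sham-E 2 and 3, against 771, 766 and 921 in Sham. Rag1 had 0.22 TPM in Sham-E 1 and 37.6 and 39.6 TPM in Sham-E 2 and 3, against 24.9, 49.0 and 49.8 TPM in Sham. Sham-E 1 thus lay far below all other libraries, while the other Sham-E libraries lay within or a little below the range of Sham. The gap between Sham-E 1 and the nearest other library, in log2 CPM with a prior count of 2, was −6.60 for Rag1, −6.29 for Vpreb1 and −5.62 for Rag2.

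The promoters of Igll1, Vpreb1 and Rag1 are shown because these 3 genes were close to absent together in Sham-E 1. They are a choice among such genes, and that of Rag2, also close to absent, is not shown. Each runs from 250 bases before to 50 bases after the start of a transcript, on the minus strand of GRCm38.p6 (RefSeq), at chr16:16863936-16864235, chr16:16869206-16869505 and chr2:101649483-101649782. Capitals mark the E-box CAGGTG, read on either strand, which is the sequence that E2A, a factor of early B cells encoded by Tcf3, is known to bind. The motif starts 8, 88 and 135 bases before the transcript start.
Igll1: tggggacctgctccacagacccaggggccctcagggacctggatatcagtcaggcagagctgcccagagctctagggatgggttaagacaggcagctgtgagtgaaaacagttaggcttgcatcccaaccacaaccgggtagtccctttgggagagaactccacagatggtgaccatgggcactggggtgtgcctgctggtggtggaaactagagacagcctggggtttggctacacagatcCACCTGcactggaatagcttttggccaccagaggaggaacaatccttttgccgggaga
Vpreb1: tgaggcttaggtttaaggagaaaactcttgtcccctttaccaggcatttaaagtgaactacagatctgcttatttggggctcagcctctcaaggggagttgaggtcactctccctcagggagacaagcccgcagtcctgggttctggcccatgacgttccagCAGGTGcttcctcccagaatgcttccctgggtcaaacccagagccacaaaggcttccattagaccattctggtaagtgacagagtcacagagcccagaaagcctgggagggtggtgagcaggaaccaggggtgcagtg
Rag1: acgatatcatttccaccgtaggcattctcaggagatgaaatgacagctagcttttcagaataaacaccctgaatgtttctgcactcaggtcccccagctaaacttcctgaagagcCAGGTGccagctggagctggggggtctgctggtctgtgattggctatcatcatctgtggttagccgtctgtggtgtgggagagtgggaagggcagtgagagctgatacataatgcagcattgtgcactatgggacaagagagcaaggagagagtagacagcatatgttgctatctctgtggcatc
The E-box stood in 20.2% of all 32851 promoters of this length, and in 13 of 37 promoters, or 8 of 22 genes, matched to the early B list. AACCACA, the RUNX motif, stood in 5.27% of all promoters and in 4 of the 37 early B promoters, or 4 of 22 genes. It also stands, unmarked, in the Igll1 and Rag1 sequences above, read on either strand. The EBF1 palindrome stood in 0.904% of all promoters and in none of the early B genes. A match describes the letters only.

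Of the 25 genes of the early B lineage, all measured, Sham-E 1 was below the other 5 libraries in 24, beside 31.8% of all genes. It was above them in the stem cell factor Erg. The list level was 2.94 in Sham-E 1, 5.92 and 5.87 in Sham-E 2 and 3, and 5.85, 6.21 and 6.18 in Sham. The level of Sham-E 1 was also below all MI and MI-E libraries, so that the other 11 libraries of the study ran from 4.48 to 6.21. The size of the difference varied among members. Pax5, which fixes a cell's commitment to B-cell development, had 66.4, 162 and 172 CPM in Sham-E, against 168, 221 and 182 CPM in Sham, and Ebf1, which acts before it, had 19.1, 72.7 and 75.5 CPM in Sham-E, against 54.7, 76.3 and 80.8 CPM in Sham. Cd93, found also on other progenitors, had 109, 133 and 121 CPM in Sham-E, against 128, 148 and 142 CPM in Sham.

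With all libraries the early B list had 25 of 25 log2 fold changes below 0, a median of −0.62, and 7 members without overlap, all lower, where 4.46% of all genes were lower without overlap. Without Sham-E 1 the median was −0.19, with 22 of 25 below 0. Dntt, which adds bases at antibody gene joints, had 9.21, 52.8 and 39.5 CPM in Sham-E, against 60.7, 59.2 and 72.2 CPM in Sham (−0.92 ± 0.45, and −0.47 ± 0.20 without Sham-E 1). Tcf3 had 102, 298 and 307 CPM in Sham-E, against 321, 362 and 347 CPM in Sham (−0.54 ± 0.30, and −0.18 ± 0.14 without Sham-E 1). Il7r, the receptor for the growth factor of these precursors, had 12.0, 50.8 and 61.5 CPM in Sham-E, against 46.6, 59.8 and 57.4 CPM in Sham (−0.40 ± 0.46, and 0.04 ± 0.25 without Sham-E 1).

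Genes of later B cells were not lost from Sham-E 1 to the same extent. Its mature B list stood at a mean log2 CPM of 6.00, against 6.21 to 6.69 in the other 5 libraries. Sham-E 1 was below the other 5 in 13 of 33 members, among them Cd79a and Ighm, beside 31.8% of all genes. It was above them in 6 of 33, among them Ighd, beside 33.7% of all genes. Cd74, the invariant chain of class II molecules, had 739, 840 and 981 CPM in Sham-E, against 622, 841 and 536 CPM in Sham, so that Sham-E 1 lay inside the range of Sham.

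All 30 measured erythroid genes were lower in Sham-E 1 than in each of the other 5 libraries, beside 31.8% of all genes. Klf1, the master factor of red cell genes, had 18.8, 193 and 297 CPM in Sham-E, against 195, 193 and 237 CPM in Sham. Hba-a1, an α-globin gene with a near-identical copy, had 1871, 5210 and 8891 CPM in Sham-E, against 5602, 6137 and 7838 CPM in Sham. Sham-E 3 was the highest of the 6 libraries in both genes, so Sham-E held both extremes. The list level was 6.47, 8.43 and 9.26 in Sham-E, against 8.67, 8.65 and 8.98 in Sham (mean log2 CPM), and the other 11 libraries of the study ran from 7.96 to 9.35. Its median log2 fold change was −0.33 with 28 of 30 negative, and 0.11 with 28 of 30 positive without Sham-E 1.

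Interferon response genes were lower in Sham-E 1 than in the other 5 libraries in 37 of 38, beside 31.8% of all genes. Isg15, a ubiquitin-like protein induced by interferon, had 10.7, 48.1 and 87.7 CPM in Sham-E, against 55.7, 70.2 and 58.3 CPM in Sham. Irf7, a factor that amplifies the response, had 20.5, 92.6 and 111 CPM in Sham-E, against 94.8, 119 and 86.6 CPM in Sham. Ifit2 was the exception, with 22.96, 25.6 and 24.9 CPM in Sham-E, against 22.1, 24.3 and 24.9 CPM in Sham. The list level was 3.75, 5.40 and 5.52 in Sham-E, against 5.17, 5.34 and 5.18 in Sham. In 5 of the 6 MI-E and MI libraries it was 3.87 to 4.09, and in MI 2 it was 5.16, so that Sham-E 1 was the lowest of 12 but close to those 5.

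Without Sham-E 1 the interferon list turned, with 37 of 38 log2 fold changes positive and a median of 0.16, whereas 27 were negative and the median was −0.17 with it. Sham-E 2 and 3 were above all Sham libraries in list level. Iigp1, a GTPase induced by interferon gamma, had 2.68, 6.52 and 13.3 CPM in Sham-E, against 4.48, 4.10 and 4.29 CPM in Sham (0.80 ± 0.47, and 1.20 ± 0.38 without Sham-E 1). Gbp2, a guanylate-binding protein, had 8.69, 22.3 and 23.1 CPM in Sham-E, against 13.5, 13.3 and 11.3 CPM in Sham (0.50 ± 0.38, and 0.84 ± 0.32 without Sham-E 1). T and NK cell genes also stood higher without Sham-E 1, with 26 of 30 positive and a median of 0.26.

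Granulocyte precursor genes were higher in Sham-E 1. It was above the other 5 libraries in 17 of 19 early precursor genes, 16 of 18 immature neutrophil genes and 20 of 32 mature neutrophil entries. Over all genes this share was 33.7%. Mpo had 4509, 2056 and 1405 CPM in Sham-E, against 1811, 1625 and 2249 CPM in Sham. Ctsg, the granule protease cathepsin G, had 751, 190 and 176 CPM in Sham-E, against 178, 181 and 229 CPM in Sham (0.93 ± 0.47, and −0.10 ± 0.19 without Sham-E 1). Chil3, a chitinase-like protein of immature neutrophils, had 9136, 3025 and 2905 CPM in Sham-E, against 2734, 2268 and 2342 CPM in Sham (1.04 ± 0.39, and 0.28 ± 0.24 without Sham-E 1). Sham-E 1 was the highest library in these 3 genes, and in Chil3 Sham-E 2 and 3 also lay above Sham. The medians were 0.43, 0.33 and 0.27 for early precursors, immature and mature neutrophils, and −0.10, 0.05 and 0.07 without Sham-E 1.

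Mature neutrophil genes split within Sham-E 1. Stefin A genes, inhibitors of cysteine proteases in a cluster of near-identical copies, were far higher: Stfa2 had 80.4, 2.02 and 2.31 CPM in Sham-E, against 1.07, 1.60 and 3.14 CPM in Sham (3.86 ± 1.31, and 0.15 ± 0.65 without Sham-E 1). BC100530, of the same cluster, had a log2 fold change of 4.18 ± 1.48, and −0.53 ± 0.65 without Sham-E 1. Il1b, an inflammatory cytokine, had 14.0, 97.5 and 66.5 CPM in Sham-E, against 110, 118 and 106 CPM in Sham. Ptgs2, the inducible enzyme of prostaglandin synthesis, had 0.562, 9.51 and 5.64 CPM in Sham-E, against 9.60, 13.1 and 15.3 CPM in Sham. Il1b and Ptgs2 were thus lowest in Sham-E 1, and Sham-E 2 and 3 were below Sham as well. Wfdc21, a secreted protein of neutrophils, had 371, 222 and 267 CPM in Sham-E, against 174, 182 and 193 CPM in Sham (0.65 ± 0.22, and 0.42 ± 0.21 without Sham-E 1), with no overlap.

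Among genes whose mean log2 CPM reached 3, the widest gaps above the other 5 libraries were in Lipg and Vcan. Some genes below that level had wider ones, among them BC100530 (5.03) and Stfa2 (4.64) of the stefin A cluster. Lipg, which encodes endothelial lipase, had 141 CPM in Sham-E 1 and 4.23 and 3.11 CPM in Sham-E 2 and 3, against 11.5, 3.28 and 3.73 CPM in Sham, a gap of 3.61 in log2 CPM. Vcan, the matrix proteoglycan versican, made in marrow by monocytes, had 386 CPM in Sham-E 1 and 24.2 and 20.3 CPM in Sham-E 2 and 3, against 33.1, 23.9 and 22.2 CPM in Sham (gap 3.54). The other 8 were Stfa1 (gap 2.95), the aspartic protease gene Asprv1 (2.61), Ms4a6d (2.56), the secretory kinase gene Fam20c (2.42), the decoy receptor gene Il1r2 (2.22), the serine protease gene Prss16 (2.00), the acyl-CoA thioesterase gene Acot1 (1.87) and F10, coagulation factor X (1.84). Sham-E 2 and 3 lay near Sham in these genes except Acot1, which had 14.1 and 13.4 CPM there, against 5.67, 7.10 and 10.2 CPM in Sham. The mean level of monocyte and dendritic cell genes did not stand apart, at a log2 CPM of 5.70 in Sham-E 1 and 5.65 to 5.87 in the other 5. Single members moved both ways, so the mean does not show that they were unchanged. Fn1 had 446 TPM in Sham-E 1 and 104 to 148 TPM in the other 5. Siglech had 15.7 TPM in Sham-E 1 and 30.6 to 46.3 TPM in the other 5. Sham-E 1 was above the other 5 in 10 of 24 and below them in 11, beside 33.7% and 31.8% of all genes. Sham-E 1 also had Nos2, the inducible nitric oxide synthase, at 8.74 CPM, with 0 in Sham-E 2 and 3 (which allows up to 0.116 and 0.133 CPM), against 0.0853, 0.041 and 0.0397 CPM in Sham.

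At the same minimum level, the 10 genes with the widest gap below the others were Igll1, Rag1, Vpreb1 and Rag2, then Myl4 (−5.50), Gfra1 (−4.97), Cplx2 (−4.72), Smim1 (−4.30), Rapgefl1 (−4.23) and Sec14l2 (−4.11). Cplx2, a protein of vesicle release and a member of the early B list, had 38, 1242 and 1026 counts in Sham-E, against 1228, 1759 and 1586 counts in Sham. Smim1, which carries the Vel blood group in human red cells, had 30, 700 and 869 counts in Sham-E, against 649, 735 and 807 counts in Sham. Sec14l2, a lipid-binding protein, had 41, 911 and 1122 counts in Sham-E, against 751, 818 and 946 counts in Sham. In CPM, Sham-E 2 and 3 lay within or above the range of Sham in Sec14l2, and in Smim1 Sham-E 3 lay above it and Sham-E 2, at 27.2 CPM, was just under Sham 1, at 27.7 CPM. In Cplx2 they lay below every Sham library, at 48.2 and 45.6 CPM in Sham-E 2 and 3, against 52.4, 72.2 and 63.0 CPM in Sham. Of all genes, 324 lay above the other 5 libraries by more than 1 in log2 CPM and 951 below by more than 1.

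Glycolysis genes were higher in Sham-E 1 than in the other 5 libraries in 17 of 25, beside 33.7% of all genes. Gpi1, the glucose phosphate isomerase, had 1727, 815 and 640 CPM in Sham-E, against 706, 754 and 739 CPM in Sham, and Gapdh had 2580, 1363 and 1043 CPM in Sham-E, against 1187, 1198 and 1229 CPM in Sham. Without Sham-E 1 the median of the list was −0.02, against 0.15 with it. Hspa5, which encodes BiP, a chaperone of the secretory pathway, was also highest in Sham-E 1, at 1023, 486 and 510 CPM in Sham-E, against 413, 409 and 489 CPM in Sham (0.62 ± 0.28, and 0.19 ± 0.21 without Sham-E 1). Xbp1, a factor of that pathway on the plasma cell list, had 326, 165 and 152 CPM in Sham-E, against 158, 142 and 140 CPM in Sham (0.55 ± 0.24, and 0.11 ± 0.14 without Sham-E 1).

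**Figure D5:**
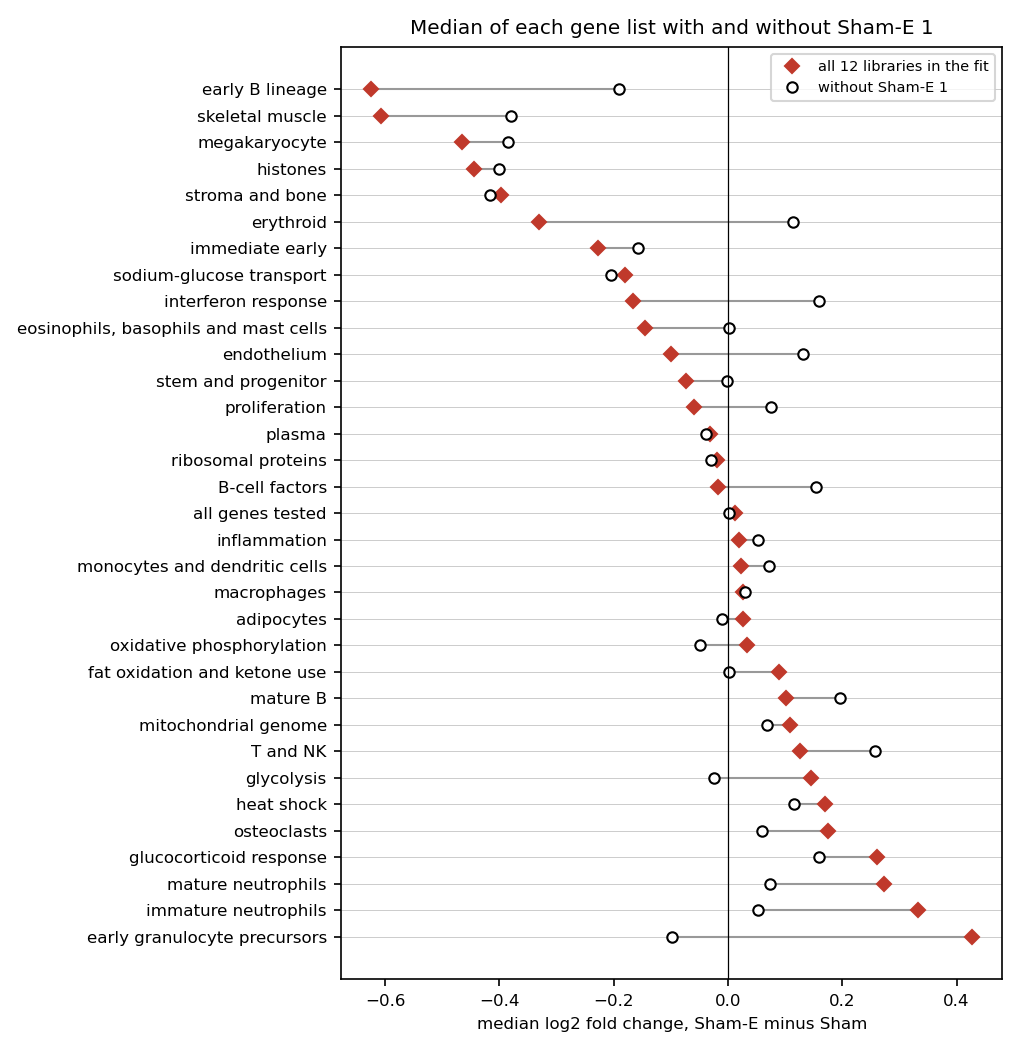
Median log2 fold change of each gene list, Sham-E minus Sham, with all libraries (red diamonds) and without Sham-E 1 (open circles). The erythroid, interferon response and early granulocyte medians lie on opposite sides of 0 (−0.33 and 0.11, −0.17 and 0.16, 0.43 and −0.10), whereas histones and stroma keep theirs (−0.44 and −0.40, −0.40 and −0.42).

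With Sham-E 1 left out, the comparison had 2 Sham-E libraries, and the genes with the smallest p were partly the same. Src, Col1a1, Kbtbd11 and Zfp318 were again among the 6 in their direction. Cd3e, a chain of the T-cell receptor complex, had 9.24 and 10.5 CPM in Sham-E 2 and 3 and 5.10 CPM in Sham-E 1, against 3.67, 6.81 and 4.45 CPM in Sham (0.99 ± 0.29). Tgtp1, an interferon-induced GTPase with a close copy, had 4.27 and 5.24 CPM in Sham-E 2 and 3 and 1.47 CPM in Sham-E 1, against 2.01, 2.54 and 1.71 CPM in Sham (1.19 ± 0.31). Gimap3, a GTPase of lymphocytes, had 51.3 and 53.5 CPM in Sham-E 2 and 3 and 43.0 CPM in Sham-E 1, against 27.6, 43.3 and 30.2 CPM in Sham (0.64 ± 0.20). Filip1l, a cytoskeletal gene, had 52.1 and 54.7 CPM in Sham-E 2 and 3 and 44.5 CPM in Sham-E 1, against 35.5, 43.3 and 36.9 CPM in Sham (0.47 ± 0.14). The 2 remaining Sham-E libraries lay above Sham in all 4 genes, as the rule of choice required. Among all genes tested, both lay outside the range of Sham in 2761 (18.3%).

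Among those lower without Sham-E 1, Meis1, a homeobox factor of blood stem cells, had 5.32 and 3.16 CPM in Sham-E 2 and 3 and 6.36 CPM in Sham-E 1, against 6.87, 7.26 and 6.51 CPM in Sham (−0.70 ± 0.25). Kcnk13, a potassium channel gene, had 1.01 and 1.78 CPM in Sham-E 2 and 3 and 5.84 CPM in Sham-E 1, against 2.69, 2.75 and 3.38 CPM in Sham (−1.08 ± 0.36). Snai1, a transcriptional repressor, had 1.05 and 1.56 CPM in Sham-E 2 and 3 and 5.84 CPM in Sham-E 1, against 2.26, 3.57 and 2.30 CPM in Sham (−1.06 ± 0.39). Serhl, a serine hydrolase-like gene, had 14.1 and 10.9 CPM in Sham-E 2 and 3 and 20.9 CPM in Sham-E 1, against 16.4, 18.6 and 17.9 CPM in Sham (−0.49 ± 0.18). In Kcnk13, Snai1 and Serhl, Sham-E 1 was the highest of the 6 libraries, on the other side of Sham from Sham-E 2 and 3.

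The EMPA difference in infarcted mice (MI-E minus MI) was set beside that in sham-operated mice by the interaction term. By edgeR, 1 of 15119 genes (0.00661%) passed an adjusted p of 0.05, B430305J03Rik, with 2042 (13.5%) at an unadjusted p under 0.05. Without MI 1 the interaction had 150 genes past the threshold and without Sham-E 2 it had 2. MI-E minus MI itself had 1 gene past the threshold (0.00661%), again B430305J03Rik, and 2630 (17.4%) at an unadjusted p under 0.05. None of the 12 leading genes of Sham-E minus Sham passed the interaction, with edgeR adjusted p from 0.2215 to 0.9684. These 12 genes were chosen by Sham-E minus Sham, which enters the interaction with its sign reversed. That choice alone makes a large interaction more likely. Src had −1.13 ± 0.30 in Sham-E minus Sham and 0.88 ± 0.30 in MI-E minus MI. Gpr65 had 0.50 ± 0.15 and −0.66 ± 0.15, whereas Zfp318 had 0.51 ± 0.16 and 0.53 ± 0.16. The histone median was −0.44 in Sham-E minus Sham and 1.42 in MI-E minus MI, the stroma and bone median −0.40 and 0.55, and the early B median −0.62 and −0.11. List differences between the operations were not tested.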

How the data were processed

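Per the labels' protocols, total RNA of bone marrow was purified by miRNeasy kit, and CASAVA 1.8, STAR 2.4.0j, RSEM and build mm10 are named in the submitters' processing notes. The authors deposited RSEM's expected counts for each gene, unscaled, and the authors deposited TPM values, scaled by transcript length. Strandedness of the libraries is not given in the sources used here. The counts, whole numbers as deposited, were filtered with filterByExpr over the 4 groups and scaled by TMM. A model with 4 group means was fitted to the 12 libraries and tested by quasi-likelihood F in edgeR 4.0.16 (under R 4.3.3). P-values were adjusted by Benjamini-Hochberg across the whole table, at a threshold of 0.05. Standard errors were taken as the log2 fold change divided by the root of F. Sham and MI-E columns were matched to their group alone, since their numbers differ from the sample titles.

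Genes were named by rule. Among genes whose groups did not overlap, with a mean log2 CPM from 1 upwards, the 6 of smallest p in either direction were taken with all libraries and again without Sham-E 1. Up to 4 members of each list described with the smallest p were taken, and 12 genes were always read. For Sham-E 1, the 10 genes in each direction with the widest gap were taken, at a mean log2 CPM of at least 3. Gm and Rik models, pseudogenes and antigen receptor segments were left out of all but the lists. Other list members and the genes called by other tools were named after their values were seen. The members and the 32 lists were chosen with earlier results of these data known, so lists carry counts and medians and no test, and Sham-E 1 carries none. Mature neutrophil entries exceed its 31 symbols because a symbol had more than 1 ID. Floors for a count of 0 use 3 counts per library and cover counting error only. Insert length was estimated from the ratio of count to TPM over genes with 1 transcript length. Positions and shared exons are from GENCODE M21 on mm10. Promoters from RefSeq (GRCm38.p6) were searched on both strands for the E-box, RUNX and EBF1 motifs. The alternatives were other scaling factors, filters, DESeq2 1.42.0, limma 3.58.1 (voom, and trend on log2(TPM + 1) and log2(TPM + 0.1)), the 6 libraries alone, removal of abundant genes, and the omission of each library in turn. The edgeR procedure was also run on simulated counts in which no library stood apart as Sham-E 1 does. That run does not measure its power or error in these data. A few genes of the rule are not reported here.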

Additional observations from a re-analysis of the deposited data

Results flagged for a closer look

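The interaction of EMPA and operation was past the threshold in B430305J03Rik, which flags a difference between the EMPA effects in infarcted and sham-operated mice. Its log2 interaction was 7.39 ± 0.79 (SE; edgeR adjusted p = 0.0072). The gene had 4.44, 5.72 and 6.33 CPM in MI-E, against 0, 0.149 and 0 CPM in MI, and 7.74, 3.42 and 4.58 CPM in Sham-E, against 9.85, 8.21 and 7.19 CPM in Sham. The size of the log2 value depends on the prior count, since 2 MI libraries were at 0, where 3 counts would allow up to 0.126 and 0.148 CPM. All of its exon bases (100%) lie within those of Rap2b, a gene of the other strand, and without strand information the reads of the pair cannot be told apart. The gene lies outside the rule for named genes and was chosen after its value was seen. In MI-E minus MI alone it had 6.71 ± 0.66 (edgeR adjusted p = 0.002747), and in Sham-E minus Sham alone −0.68 ± 0.40 (edgeR adjusted p = 0.9996).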

How the results depend on the processing

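No gene passed an adjusted p of 0.05 in Sham-E minus Sham under any alternative of edgeR, limma-voom or limma on TPM, nor with any library left out, whereas DESeq2 called 2 genes and limma-voom with a weight for each library called 2, with Bglap in both (log2 fold changes −3.27 and −3.07). Library weights were 0.223 for Sham-E 1, 4.56 for Sham-E 2 and 0.825 for Sham-E 3. For the difference of the EMPA effects, the count of 1 gene became 152 with DESeq2, 0 with limma-voom, 7 on log2(TPM + 1) and 14 on log2(TPM + 0.1), and ran from 1 to 150 with a library left out (150 without MI 1, 2 without Sham-E 2); the causes were not tested. Genes at an unadjusted p under 0.05 in Sham-E minus Sham, 287 by edgeR, numbered 1625 with library weights, and 161 to 1032 with a library left out. Of 736 list medians under the alternatives, 19 moved by more than the spread of the list level between libraries. That spread includes Sham-E 1 and is wide where it stands apart, so the count does not show that medians are stable. Without Sham-E 1 the erythroid median went from −0.33 to 0.11 and the interferon median from −0.17 to 0.16, and neither counted as moved. The median of stroma and bone (−0.40) ran from −1.52 to −0.21, that of skeletal muscle (−0.61) from −0.77 to −0.10, and that of adipocytes (0.03) from −0.37 to 0.18. The share of positive log2 fold changes over all genes ran from 47% to 54.3%. The difference in mitochondrial share, 0.0667 percentage points, ran from −0.0622 (without Sham-E 3) to 0.188 with a library left out.

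Of 1309 values of named genes under the alternatives, 32 had the other sign and 1275 kept sign and call. Ms4a1 (0.01) had −0.01 with upper quartile factors and limma-voom, −0.03 on both TPM scales, 0 with the 6 libraries alone, and −0.21 to 0.2 with a library left out. Cxcr4 (0.04) had 0 with limma-voom, −0.01 on both TPM scales and −0.11 to 0.27 with a library left out. Snai1 (0.05) had −0.34 with limma-voom, −1.12 with library weights, −0.17 on log2(TPM + 1), −0.31 on log2(TPM + 0.1) and −1.06 to 0.43 with a library left out. With a library left out, Cxcl12 (−0.05) had −0.91 to 0.36, Kcnk13 (−0.03) −1.08 to 0.36, Il7r −0.8 to 0.04, Ctsg −0.1 to 1.26 and BC100530 −0.53 to 4.75, and the last had −0.09 with library weights. Without Sham-E 1 were the outer values of Ms4a1 (0.2), Cxcr4 (0.27), Snai1, Kcnk13, Il7r, Ctsg and BC100530.

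No paired analysis was possible because the Sham and MI-E columns carry other numbers than the sample titles and so match no numbered sample. Depth limits genes of a few counts, such as Slc5a2, Il7, Bglap and Bglap2. With 3 libraries a group and 1 of them far from the rest, a gene that misses the threshold is not shown to be unchanged.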
